A study of Mus musculus with 12 samples.

Results

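In vivo iSEPs are cultured epithelial cells that, per the labels, arose inside the mouse from Pdgfra-positive adipose-derived stromal cells (ADSCs). The name stands for induced stratified epithelial progenitors. The 3 in vivo iSEP libraries were compared here with the 3 libraries of cultured ADSCs, 6 of the 12 libraries of the series. The other 6 are iSEPs converted in culture from such ADSCs, and keratinocytes of back skin, both in the serum-free medium. They serve for reference, and also enter the filter on low values and the spread estimate behind each standard error and p-value. All libraries carry the strain label Pdgfra-creERxLSL-tdTomato, a cross in which an inducible Cre under Pdgfra control can switch on a red reporter in Pdgfra-expressing cells and their progeny. The ADSCs came from subcutaneous adipose tissue and were grown in DMEM with 10% FBS. The in vivo iSEPs came from epithelial tissue converted from mesenchyme and were grown in keratinocyte medium without serum. Origin, conversion and medium change together between the groups, so their parts in any difference cannot be told apart. The labels used here give neither the age of the mice nor the genes used for conversion, and a gene's value does not separate reads of an introduced copy from those of the mouse's own gene. Mouse numbers 1, 2 and 3 mark the same animals in both groups.

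Stratified epithelia such as epidermis rest on a basal layer that holds the proliferating cells. Basal cells express the keratin pair encoded by Krt5 and Krt14, are joined to each other by desmosomes and to the basement membrane by hemidesmosomes, and depend on the transcription factor p63. Cells leaving that layer switch keratins and build a cornified envelope from crosslinked proteins. Adipose stromal cells are fibroblast-like cells that secrete and crosslink collagen matrix and carry the PDGF receptors. A change from stroma to epithelium is the reverse of the epithelial-mesenchymal transition (EMT), which transcription factors of the Zeb, Snail and Twist families drive.

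Expression is given as FPKM, the fragments per kilobase of transcript scaled to library depth, from the deposited table of 24537 genes. The steps between low FPKM gave a depth of 23560000 to 27770000 reads in the table's genes for each of these 6 libraries, and 10845 to 11349 genes reached 1 FPKM. Genes that reached 1 FPKM in 3 or more of the 12 libraries, 12364 in all, were tested with limma on log2(FPKM + 1), and a gene is said to rise or fall where its adjusted p was below 0.05. Log2 differences are in vivo iSEPs minus ADSCs with their standard error (SE), on that scale. They understate the change of low genes. A gene below 1 FPKM in every library of a group passed the filter only through other groups, so its p-value adds little to the levels. Values of the libraries are given in the order of mice 1, 2 and 3, and n is 3 in each group. FPKM measure a share of each library's RNA, so fewer cells of a type and less RNA per cell cannot be told apart. Nothing states that the cultures of a group were independent beyond coming from different mice. Xist and Ddx3y set mouse 1 apart from mice 2 and 3 in both groups. They cannot tell mouse 2 from mouse 3, so they check the shared number of mouse 1 only. Xist stood at 29.8 and 28.7 FPKM in the ADSCs and in vivo iSEPs of mouse 1 and at most 0.015 in the other 4 libraries, and Ddx3y was the other way round. Eif2s3y, also on the Y chromosome, was at 1.17 FPKM in the in vivo iSEPs of mouse 2 against 21.2 in that mouse's ADSCs.

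Among the in vivo iSEPs the culture of mouse 3 differed most from the others. Among 6663 genes with at least 10 FPKM in 1 of the 3, this library lay more than 3 log2 units above the nearer of the other 2 in 30 genes and below in 4, against 4 and 4 for mouse 1 and 2 and 1 for mouse 2. It held the highest in vivo value of 56.9% of the genes that fell and the lowest of 45.7% of those that rose. Calls were made with and without it: 5888 genes (3412 higher, 2476 lower) with all libraries, 6281 (3752 and 2529) without it. Leaving out mouse 2 brought the count to 3486 (1914 and 1572). Here and below, leaving out a mouse removes its libraries in all 4 groups.

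In vivo iSEPs and ADSCs differed in 47.6% of the genes tested, with 27.6% higher in in vivo iSEPs and 20% lower. The 3 libraries of a group did not overlap the other 3 in 54.2% of genes (32% higher, 22.2% lower). Changes of at least 5 log2 units numbered 86 upward and 71 downward. The median of all genes tested was 0.14, and centring on the median turned the split of called genes from 57.9% higher to 48.1% higher. The 10 largest rises were those of Krt17, Krt14, Krt5, Krt6a, Perp, Col17a1, Sfn, Dsp, Ly6d and Serpinb5, and the 10 largest falls those of Postn, Col1a1, Col3a1, Col1a2, Bgn, Thy1, Mfap5, Sfrp1, Rcn3 and Fbn1. Highest of all in in vivo iSEPs were Krt5, Krt14 and Krt17. In ADSCs Lgals1 (galectin 1), Postn and Thbs1 led.

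**Figure D1:**
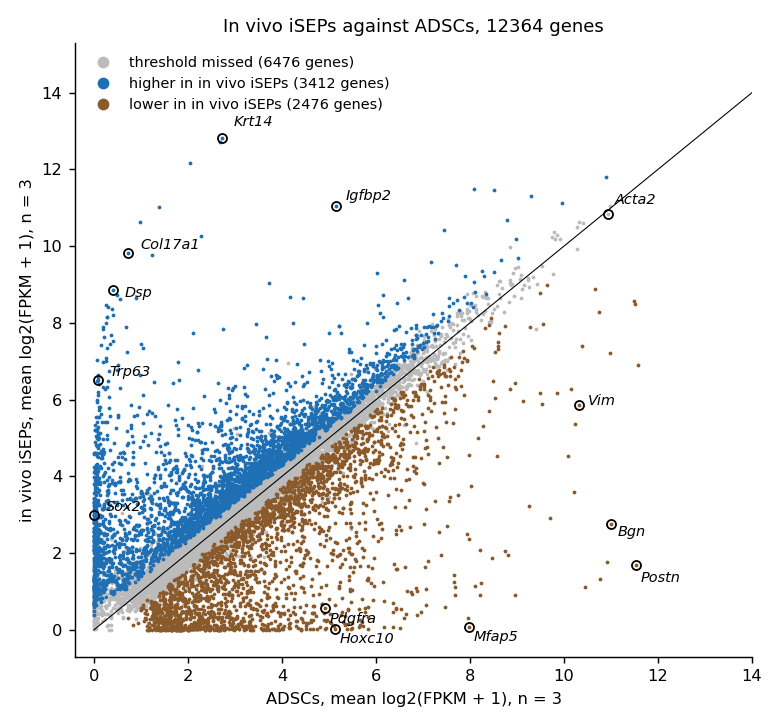
Mean log2(FPKM + 1) of each of the 12364 genes tested in ADSCs (horizontal) and in vivo iSEPs (vertical), n = 3 each, with called genes in blue (3412 higher) and brown (2476 lower) and the diagonal as the line of equal level. Krt14 and Col17a1 lie far above the line, Postn, Bgn and Mfap5 far below it, and the smooth muscle actin gene Acta2 close to it at a high level in both groups.

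Krt14 (mm10 chromosome 11, 100203162 to 100206030) encodes the acidic keratin of basal cells. Its level was 5.75, 4.9 and 6.15 FPKM in ADSCs and 9607, 6968 and 5621 in in vivo iSEPs (log2 10.10, SE 0.22, adjusted p = 1.43e-10). Its partner Krt5 (chromosome 15, 101707070 to 101712891) went from 5.76, 5.3 and 5.14 to 9804, 9252 and 3410 (log2 10.05, SE 0.34, adjusted p = 1.88e-09). The groups lay far apart in both genes, with mouse 3 lowest among the in vivo iSEPs. Krt17, a keratin of appendages and of wounded epidermis, had the largest rise of all genes with a group mean of at least 5 FPKM, from 3.17, 2.98 and 3.2 to 4793, 5905 and 3386 (log2 10.12, SE 0.20, adjusted p = 7.6e-11). The wound keratins Krt6a (log2 9.64), Krt16 (8.11) and Krt6b (4.94) rose with it, although Krt6a and Krt6b are near-identical copies that may share reads. In all, 6 of 7 tested keratins of basal and stressed layers rose. Krt15, the remaining one, had at most 0.021 FPKM in ADSCs and 1.48, 8.56 and 1.49 in in vivo iSEPs (adjusted p = 0.159).

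Keratins of later layers stood much lower and spread more. Krt10, a keratin of suprabasal cells, was at 0.512, 0.556 and 0.447 FPKM in ADSCs and 5, 21.9 and 3.09 in in vivo iSEPs (adjusted p = 0.0515). Its partner Krt1 had 7.37, 37.4 and 0.979 (adjusted p = 0.0819). For both genes every in vivo library lay above every ADSC library, and mouse 2 was highest. Of 7 such keratins tested, Krt80 (log2 2.82) and Krt78 (2.09) rose. Krt78 lost its call with no filter, without mouse 1 or mouse 3, without the in vivo iSEPs of mouse 1 or 3 and without the ADSCs of any 1 mouse (highest adjusted p = 0.233).

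Simple epithelial keratins divided the in vivo iSEPs. Krt8, at 0.122, 0.076 and 0.16 FPKM in ADSCs, was at 0.159, 0.166 and 103 in in vivo iSEPs, and its partner Krt18 at 2.79, 2.66 and 95.5. Only the culture of mouse 3 held this pair at a high level, and neither gene passed the test (adjusted p = 0.216 and 0.0789). Krt7 rose (log2 2.86, adjusted p = 0.0126) with its highest value, 46.2 FPKM, in the same library, and missed the threshold without mouse 2 (adjusted p = 0.0939). Krt20 fell from 4.06, 5.94 and 5.71 to at most 0.097 (log2 -2.56, adjusted p = 5.33e-08). ADSCs also held Krt19, at 17.8, 44.7 and 45.6 FPKM, which was at 1.21, 4.03 and 4.58 in in vivo iSEPs (adjusted p = 0.0141, and 0.0845 without mouse 2). That call was also lost without mouse 3, without the in vivo iSEPs of mouse 1 and without the ADSCs of mouse 2.

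**Figure D2:**
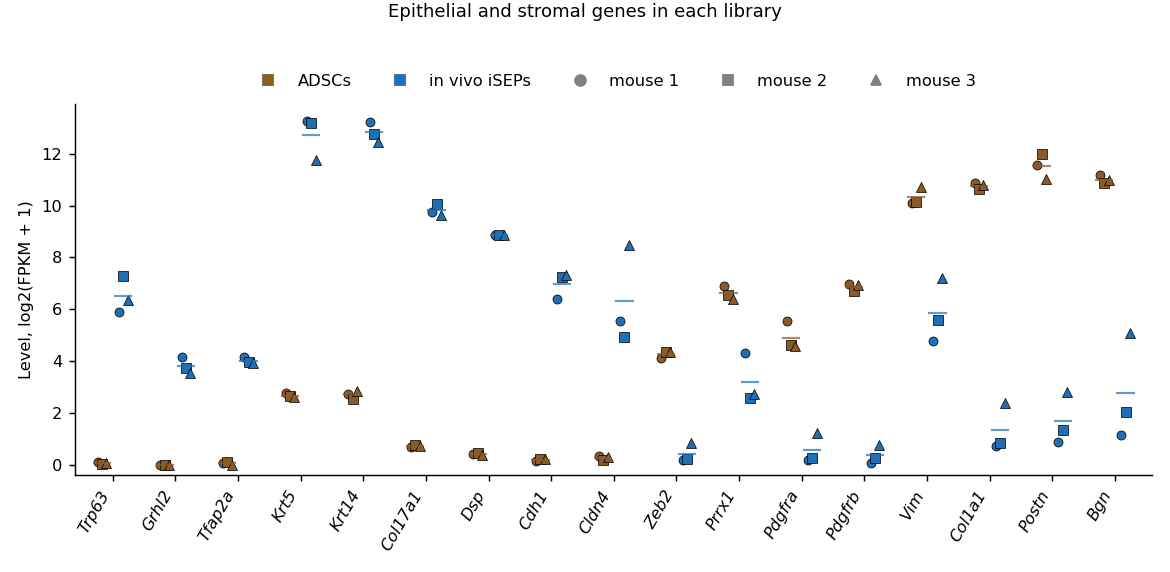
Level as log2(FPKM + 1) of 9 epithelial genes (left) and 8 stromal or mesenchymal genes (right) in each library of ADSCs (brown) and in vivo iSEPs (blue), with circles, squares and triangles for mice 1, 2 and 3 and a bar at the mean of each group (n = 3). The groups do not overlap in any of the 17 genes, and the triangle of mouse 3 is the highest of the in vivo iSEPs in 7 of the 8 stromal genes.

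Transcription factors of epithelial cells rose almost as a block. Of 29 tested, 24 rose and 5 missed the threshold, with a median log2 difference of 2.76. Trp63, which encodes p63 (chromosome 16, 25801916 to 25877143), was at 0.092, 0.02 and 0.063 FPKM in ADSCs and 59.3, 156 and 80.7 in in vivo iSEPs (log2 6.44, SE 0.30, adjusted p = 2.35e-08). Klf5 had 0.675, 0.673 and 1.06 against 55.5, 70.5 and 26.2 (log2 4.74, adjusted p = 5.59e-07). The grainyhead-like factors, which open epithelial enhancers, rose in the same direction: Grhl1 by 4.31, Grhl2 by 3.80 and Grhl3 by 2.83 log2 units. Grhl2 had 16.7, 12.5 and 10.6 FPKM in in vivo iSEPs against at most 0.007.

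Tfap2a, an AP-2 factor of surface ectoderm, rose from at most 0.074 to 16.8, 14.7 and 14.1 FPKM (log2 3.94, adjusted p = 3.66e-07). Tfap2c had 15, 12 and 7 in in vivo iSEPs and at most 0.013 in ADSCs (log2 3.56, adjusted p = 2.17e-07). Hr, the hairless corepressor of skin, rose by 4.54 and Zfp750, a factor of terminal differentiation, by 4.16. Klf4 (49.6, 33.5 and 28.4 against 26.3, 19.8 and 20.9 FPKM, adjusted p = 0.0518) and Runx1 (adjusted p = 0.716) missed the threshold. Myc, a growth regulator, rose from 19.9, 24.5 and 33.2 to 57.9, 80.4 and 63.9 (log2 1.37, SE 0.26, adjusted p = 0.00114). The epithelial splicing factors Esrp1 (adjusted p = 1.07e-09) and Esrp2 (log2 3.74, adjusted p = 1.42e-08) rose too, Esrp1 from at most 0.102 FPKM to 41.6, 33 and 25.4.

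Sox2, a factor of pluripotent cells and of some stratified epithelia, was listed at 0 in all 3 ADSC libraries and at 16.8, 10 and 1.63 FPKM in in vivo iSEPs (adjusted p = 0.000558). It was also higher in in vivo iSEPs than in in vitro iSEPs (at most 0.032 FPKM, adjusted p = 0.0199) and than in keratinocytes (at most 0.014, adjusted p = 0.006). Sox2 passed the filter on low values only through the 3 in vivo iSEP libraries, so it had to differ from the other groups, and these p-values add nothing to the levels. The remaining 9 genes of the pluripotency list did not reach the level for testing. Its relative Sox21 was likewise listed at 0 in ADSCs and stood at 19.4, 8.93 and 5.42 in in vivo iSEPs (adjusted p = 7.47e-06). Being at 0 in ADSCs, Sox21 could only come out higher, so its p-value too adds little to the levels.

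EMT and mesenchymal transcription factors went the other way, with 23 of 26 lower and a median of -1.82. Zeb2 fell from 16.6, 19.6 and 19.5 FPKM to 0.128, 0.182 and 0.812 (log2 -3.86, SE 0.19, adjusted p = 3.61e-08). Snai1 fell from 34.7, 13.8 and 19.6 to 0.066, 0.123 and 1.26 (log2 -3.99, SE 0.36, adjusted p = 4.37e-06). Both repress the E-cadherin gene Cdh1, which rose from 0.121, 0.162 and 0.17 to 82.6, 151 and 160 (log2 6.79, adjusted p = 5.04e-09). Zeb1 fell less, from 17.6, 13.3 and 13.6 to 2.26, 5.41 and 6.38 (log2 -1.55, adjusted p = 0.000717). Snai2 was the single member that rose, from 25.8, 26.7 and 25.8 to 68.5, 62 and 32.8 (log2 0.97, adjusted p = 0.00396). That call was lost without mouse 1 or without mouse 2, where its adjusted p was highest at 0.0942. Ebf1, a regulator of stromal and adipose cells, fell from 18.8, 18.4 and 20.6 to at most 0.097 (log2 -4.28, adjusted p = 8.28e-10). Creb3l1, which drives collagen secretion, fell from 46.5, 36 and 53.9 to 1.72, 2.44 and 1.47 (log2 -4.01, adjusted p = 1.31e-08).

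Cell junction genes rose in nearly every class. Of 14 tested desmosome genes 12 rose, with a median of 4.18. Dsp (chromosome 13, 38151294 to 38198577), the desmoplakin that links desmosomes to keratin filaments, was at 0.331, 0.367 and 0.292 FPKM in ADSCs and 465, 470 and 460 in in vivo iSEPs (log2 8.45, SE 0.10, adjusted p = 1.25e-12). This was the closest agreement of the 3 in vivo cultures among the 10 largest rises. Perp, a desmosomal membrane protein, rose by 9.62 to 2498, 2118 and 1672 FPKM. The adhesion and plaque genes Pkp1 (7.88), Dsg3 (7.65) and Dsc3 (7.27) rose as well. Pkp2, which heart and fibroblast junctions also use, had 7.92, 13.5 and 12.8 against 6.41, 9.02 and 19.8 (adjusted p = 0.877).

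Of 18 hemidesmosome and epidermal basement membrane genes 12 rose and 3 fell. Col17a1 (chromosome 19, 47646341 to 47692042), a transmembrane collagen of hemidesmosomes, went from 0.607, 0.722 and 0.646 FPKM to 856, 1075 and 787 (log2 9.08, SE 0.15, adjusted p = 1.86e-11). The laminin chain genes Lama3 and Lamb3 of the epidermal basement membrane rose by 7.73 and 7.33. The fallen members were Nid1 (log2 -5.61), Lamc1 (-1.03) and Itgb1 (-0.71), genes that stromal cells also use, the last of them not without mouse 2 (adjusted p = 0.213) or mouse 3 or without the ADSCs of mouse 2.

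Tight junction genes rose in 15 of 21 cases. Cldn4 went from 0.26, 0.151 and 0.238 to 45.6, 29.8 and 353 FPKM (log2 6.04, SE 0.68, adjusted p = 2.4e-05), and Cldn1, the claudin of the epidermal barrier, from at most 0.133 to 21.5, 32.8 and 99.9 (log2 5.24, adjusted p = 1.6e-06). Mouse 3 was highest in both, and Cldn3, at 23.2 FPKM there and at most 0.283 in the other 5 libraries, missed the threshold (adjusted p = 0.256). Cadherins moved both ways. Beside the rise of Cdh1, Cdh13 rose by 3.42 on the log2 scale. Cdh2 (N-cadherin) fell from 23, 24.3 and 34.5 to 0.864, 9.57 and 12.5 (log2 -2.11, adjusted p = 0.0147), a call lost with the 6 libraries alone, without mouse 2 (adjusted p = 0.0552) and without the ADSCs of mouse 3. Cdh11 of fibroblasts fell from 128, 93.5 and 82.6 to 0.37, 0.343 and 3.42 (log2 -5.64, adjusted p = 1.42e-06). Cdh3 (P-cadherin) was at 20.8, 21.5 and 22.2 in ADSCs and rose to 39.7, 51.5 and 54.9 (log2 1.13, adjusted p = 1.25e-05).

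Gap junction genes rose in 6 of 8 cases, and 3 rose without mouse 2. Gja1, a widely expressed connexin gene, rose from 22.7, 14.6 and 18.7 to 124, 150 and 35.4 FPKM (log2 2.19, adjusted p = 0.00303, and 0.0749 without mouse 2). Gjc1 fell by 2.91. Of 12 cadherins and adherens junction genes 7 rose and 4 fell.

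Epithelial surface proteins and proteases rose in 20 of 25 cases. Epcam, an epithelial adhesion protein, was at 16.6, 6.87 and 116 FPKM against at most 0.122 (log2 4.52, SE 0.73, adjusted p = 0.000398). The matriptase gene St14 and its inhibitor gene Spint2 rose together, by 5.49 and 6.39.

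Of 34 tested genes of the cornified envelope and terminal differentiation 25 rose, with a median of 2.62. Ly6d, a surface protein of keratinocytes, was at 655, 317 and 364 FPKM against at most 0.496 (log2 8.24, adjusted p = 6.87e-08). Dmkn, a secreted protein of differentiating epidermis, was at 486, 294 and 177 against at most 0.432 (log2 7.80, adjusted p = 2.15e-08). The envelope precursor Sprr1a stood at 157, 55.8 and 587 FPKM (log2 6.46, adjusted p = 4.3e-05). For Krtdap the order turned, with 648 and 324 FPKM in mice 1 and 2 and 8.82 in mouse 3 (log2 6.74, SE 1.31, adjusted p = 0.00137). Lor, which encodes the main late envelope protein loricrin, had 6.54, 1 and 6.57 against at most 0.04 (adjusted p = 0.0729). Seen along the genome, 23 of 45 tested genes of the epidermal differentiation complex (chromosome 3, 90511034 to 93564645, S100a1 to S100a10) rose and 3 fell. The complex lists 71 genes in all. Among S100 proteins, annexins and serpins, which overlap that complex, 14 of 26 rose and 9 fell. The serpin genes went both ways: Serpinb5 (maspin) rose from at most 0.32 to 487, 375 and 240 FPKM (log2 8.22, adjusted p = 4.33e-10), and Serpinf1 fell from 1051, 1262 and 1276 to 14.4, 6.68 and 13.6 (log2 -6.64, adjusted p = 2.09e-07).

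**Figure D3:**
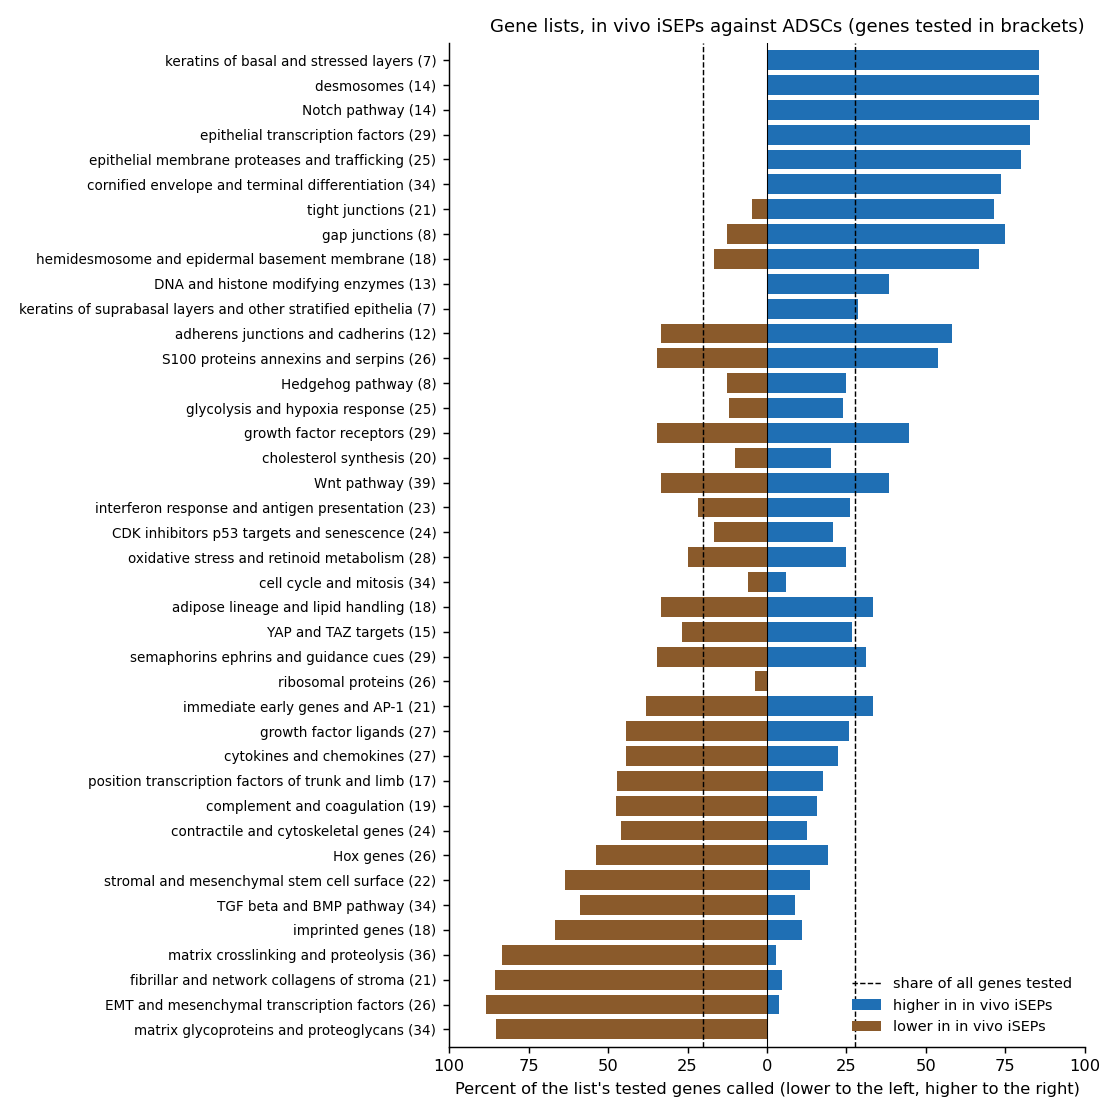
Percent of each list's tested genes (number in brackets) that were called higher (blue, to the right) or lower (brown, to the left) in in vivo iSEPs than in ADSCs, with dashed lines at the shares over all genes tested, 27.6% higher and 20% lower. Desmosome, Notch and epithelial factor lists lie far to the right, matrix and EMT lists far to the left, and cell cycle and ribosomal lists hold fewer calls than the dashed lines in either direction.

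The stromal matrix program fell over a wide range. Of 21 tested collagens of stroma 18 fell, with a median of -3.32. Col1a1 and Col1a2, which together form type I collagen, went from 1847, 1590 and 1779 FPKM to 0.673, 0.821 and 4.26 (log2 -9.43, SE 0.45, adjusted p = 2.61e-08) and from 2173, 1860 and 1799 to 0.641, 1.16 and 10.2 (log2 -9.15, SE 0.61, adjusted p = 3.42e-07). Col3a1 fell by 9.32 and Col5a1 by 6.60 on the log2 scale. The network collagens of basement membrane fell less. Col4a1 was at 416, 436 and 539 in ADSCs and 22.3, 106 and 186 in in vivo iSEPs (log2 -2.57, adjusted p = 0.00382). Col18a1, a basement membrane collagen that epithelia secrete, rose from 7.92, 5.79 and 3.95 to 160, 240 and 311 (log2 5.10, adjusted p = 5.08e-08).

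Of 34 matrix glycoproteins and proteoglycans 29 fell, with a median of -3.76. Postn (periostin, chromosome 3, 54361107 to 54391041) had the largest fall of all, from 3019, 4045 and 2078 FPKM to 0.872, 1.54 and 6.07 (log2 -9.83, SE 0.62, adjusted p = 2.42e-07). Bgn (biglycan) went from 2296, 1850 and 1998 to 1.2, 3.15 and 32.8 (log2 -8.24, adjusted p = 1.02e-05). Mfap5, a microfibril protein, went from 272, 310 and 191 to at most 0.051 (log2 -7.92, adjusted p = 1.01e-08). Fn1 (fibronectin) was at 2561, 1897 and 1654 in ADSCs and 39.7, 75.9 and 1039 in in vivo iSEPs (log2 -3.76, SE 0.89, adjusted p = 0.00479), a call lost without mouse 1 and without mouse 2 (adjusted p = 0.0974). Mouse 3 was the library nearest to the ADSC range. The summed level of the 40 listed genes of this class was 18919, 18383 and 16958 FPKM in ADSCs and 808, 1467 and 3626 in in vivo iSEPs.

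Enzymes that crosslink and cleave matrix fell in 30 of 36 cases, with a median of -2.57. Lox, the lysyl oxidase that crosslinks collagen, went from 1059, 1097 and 1115 to 1.8, 37.4 and 113 FPKM (log2 -5.56, SE 1.04, adjusted p = 0.00107). Pcolce, an enhancer of procollagen cleavage, fell by 6.68, and the protease inhibitor genes Timp3 and Timp1 by 6.85 and 6.02. The stromelysin gene Mmp10 rose, from 0.255, 2.47 and 0.811 to 6.23, 8.84 and 22.4 (log2 2.57, adjusted p = 0.00114). Plau (urokinase) had 50.4, 93.5 and 217 against 50.7, 44.8 and 49.8 (adjusted p = 0.0549).

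Surface markers of stroma fell in 14 of 22 cases and rose in 3. Pdgfra, the gene by which the starting cells are defined, went from 46, 23.4 and 22.8 FPKM to 0.158, 0.207 and 1.34 (log2 -4.34, SE 0.35, adjusted p = 1.71e-06). Pdgfrb went from 126, 102 and 123 to at most 0.728 (log2 -6.50, adjusted p = 5.04e-09), and Thy1 from 591, 448 and 471 to 0.227, 0.516 and 2.52 (log2 -8.06, adjusted p = 2.74e-08). Nt5e, which encodes CD73 and is used as a marker of mesenchymal stem cells, rose from 0.993, 0.305 and 0.211 to 44.2, 85.4 and 124 (log2 5.75, adjusted p = 9.54e-08). Cd44 had 68.3, 80.8 and 145 against 106, 126 and 119 (adjusted p = 0.312). For Pdgfra, Pdgfrb and Thy1 the remaining signal was largest in the in vivo iSEPs of mouse 3.

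Contractile genes were mixed: 11 of 24 fell, 3 rose and 10 missed the threshold. Vim (vimentin) fell from 1082, 1131 and 1671 to 26.5, 47 and 148 FPKM (log2 -4.45, SE 0.56, adjusted p = 6.19e-05), and Cnn1 from 181, 268 and 361 to 4.11, 13.9 and 31.4 (log2 -4.27, adjusted p = 6.47e-05). Acta2, the smooth muscle actin of myofibroblasts, stood at 1328, 2051 and 2757 in ADSCs and 798, 2660 and 2943 in in vivo iSEPs (log2 -0.09, SE 0.50, adjusted p = 0.901). Tpm1 was at 1008, 1298 and 1430 against 860, 1710 and 2033 (adjusted p = 0.6). In both genes the ranges of the groups overlapped, with mouse 1 lowest in each group.

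Of 29 growth factor receptors 13 rose and 10 fell, against 27.6% higher and 20% lower over all genes tested. The pairs set side by side here were picked after their values were seen. Fgfr1 fell from 64.9, 57.2 and 58.4 FPKM to 2.82, 2.31 and 11.9 (log2 -3.48, adjusted p = 9.87e-05), while Fgfr2, whose epithelial form binds Fgf7, rose from 4.07, 2.41 and 3.37 to 38.3, 44.3 and 16.1 (log2 2.89, adjusted p = 0.000177). Ddr2 fell by 2.34 and Ddr1, the other collagen receptor of this kind, rose by 2.15. Met, the receptor of hepatocyte growth factor, rose from 3.54, 1.22 and 1.56 to 30, 30 and 25.1 (log2 3.31, adjusted p = 6.66e-07). Egfr was at 39.2, 29.5 and 27.8 against 35.6, 41 and 40.7 (adjusted p = 0.135).

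Of 27 ligands 7 rose and 12 fell, against 27.6% higher and 20% lower over all genes tested. Fgf7, the stromal ligand of epithelial Fgfr2, fell from 120, 90.5 and 71.5 to 0.08, 0.136 and 1.55 FPKM (log2 -5.99, SE 0.38, adjusted p = 2.17e-07), and Hgf, the ligand of Met, from 39.6, 23.2 and 11.3 to at most 0.263 (log2 -4.35, adjusted p = 1.11e-06). The EGF family gene Epgn rose from at most 0.111 to 12.7, 25.1 and 52.6 (log2 4.66, adjusted p = 6.78e-06). Pdgfb rose from at most 0.128 to 7.79, 14.6 and 26 (log2 3.85, adjusted p = 2.19e-06), while Pdgfd fell by 4.36. Fgf7 and Hgf thus fell while Fgfr2 and Met rose, and Pdgfb rose while Pdgfra and Pdgfrb fell. Among IGF binding proteins, Igfbp2 rose from 25.4, 29.5 and 54.5 to 1212, 4048 and 1965 (log2 5.91, adjusted p = 8.76e-07), and Igfbp6 fell from 132, 89 and 81.9 to at most 0.782 (log2 -6.22, adjusted p = 1.28e-08).

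Notch pathway genes rose in 12 of 14 cases, with a median of 2.11. Notch signalling passes between neighbouring cells and drives keratinocytes out of the basal state. The ligand gene Jag2 went from at most 0.068 to 35.5, 49.2 and 21.4 FPKM (log2 5.03, SE 0.27, adjusted p = 5.9e-08) and Dll1 from at most 0.119 to 33.3, 46 and 13.8 (log2 4.73, adjusted p = 9.53e-07). The receptor gene Notch1 went from 1.46, 0.817 and 1.76 to 40.4, 39.5 and 25.3 (log2 3.93, adjusted p = 3.13e-08). The feedback target Nrarp rose by 3.27, and the target gene Hes1 by 1.16.

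Wnt genes moved both ways, 15 of 39 up and 13 down, 21 of the latter kind with no filter on low values. The shares over all genes tested were 27.6% higher and 20% lower. Several ligands rose from near absence. Wnt10a went from at most 0.08 to 57.3, 79 and 54.5 FPKM (log2 5.92, SE 0.13, adjusted p = 1.43e-10), Wnt4 from 0.879, 0.455 and 2.16 to 199, 263 and 81.6 (log2 6.32, adjusted p = 3.77e-07), and Wnt7b from at most 0.074 to 31, 30.9 and 73.4 (log2 5.35, adjusted p = 7.71e-08). The receptor gene Fzd6 rose by 4.74. The antagonist gene Sfrp1 fell from 555, 204 and 136 to 0.473, 0.212 and 0.065 (log2 -7.66, adjusted p = 3.83e-08), and Dkk2 fell by 3.81.

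Of 34 TGF beta and BMP genes 20 fell and 3 rose. The ligand gene Tgfb3 fell from 33.2, 40.2 and 63.7 to 0.222, 0.176 and 4.93 FPKM (log2 -4.46, adjusted p = 4.81e-05). The BMP-induced Id1 (log2 -2.77), Id3 (-2.27), Id4 (-2.21) and Id2 (-1.98) all fell. Tgfb1 had 15.5, 19.4 and 16.7 against 12.8, 15.6 and 19.4 (adjusted p = 0.649). Of 15 targets and factors of YAP and TAZ signalling 4 rose and 4 fell, and the latter count was 7 without the in vivo iSEPs of mouse 3 and 2 without those of mouse 1, without the ADSCs of mouse 3 or without mouse 2. Ankrd1, a common YAP target, fell from 28.2, 49.8 and 86 to 0.386, 0.829 and 11.7 (log2 -3.99, adjusted p = 0.00185), and Ajuba rose by 2.78. Among Hedgehog genes 2 of 8 rose and 1 fell. The Hedgehog list and that of YAP and TAZ lay near the shares over all genes tested, 27.6% higher and 20% lower.

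Hox genes record position along the body axis. Of 26 tested, 14 fell and 5 rose, with 1 rise in place of 5 without mouse 2. Hoxc10 (chromosome 15, 102966796 to 102971897) went from 39.8, 31.2 and 31.5 FPKM to 0.037, 0 and 0 (log2 -5.11, SE 0.16, adjusted p = 1.22e-09). Hoxa10 had 13.2, 11.9 and 11.1 against at most 0.033 (log2 -3.69, adjusted p = 6.19e-07), and Hoxb9 27.6, 34 and 37.7 against 1.06, 2.35 and 9.73 (log2 -3.01, adjusted p = 0.000207). Hoxc4, at the opposite end of its cluster, rose from 2.69, 1.6 and 1.66 to 12.8, 14.4 and 5.2 (log2 1.89, adjusted p = 0.00164, and 0.0509 without mouse 2). Hoxc6 had 20.5, 21.1 and 18.7 against 14.7, 22.8 and 12.4 (adjusted p = 0.524). In the Hoxc cluster (chromosome 15, 102921131 to 103036852), all 6 tested genes from Hoxc8 to Hoxc13 fell, while Hoxc4 and Hoxc5 rose. Low and high paralogue numbers did not each go one way: Hoxa3 (log2 -0.43), Hoxb3 (-0.83) and Hoxb6 fell, and Hoxd8 (1.35) and Hoxd9 (1.33) rose. A split by paralogue was not tested. The calls of Hoxb6, Hoxc4, Hoxc5, Hoxc13 and Hoxd8 were lost without mouse 2, and that of Hoxb6 also without mouse 3. Hoxa3 and Hoxc8 lost theirs in most of the alternatives run, Hoxa3 with an adjusted p of 0.245 without mouse 2 and Hoxc8 with an adjusted p of 0.215 without mouse 1.

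**Figure D4:**
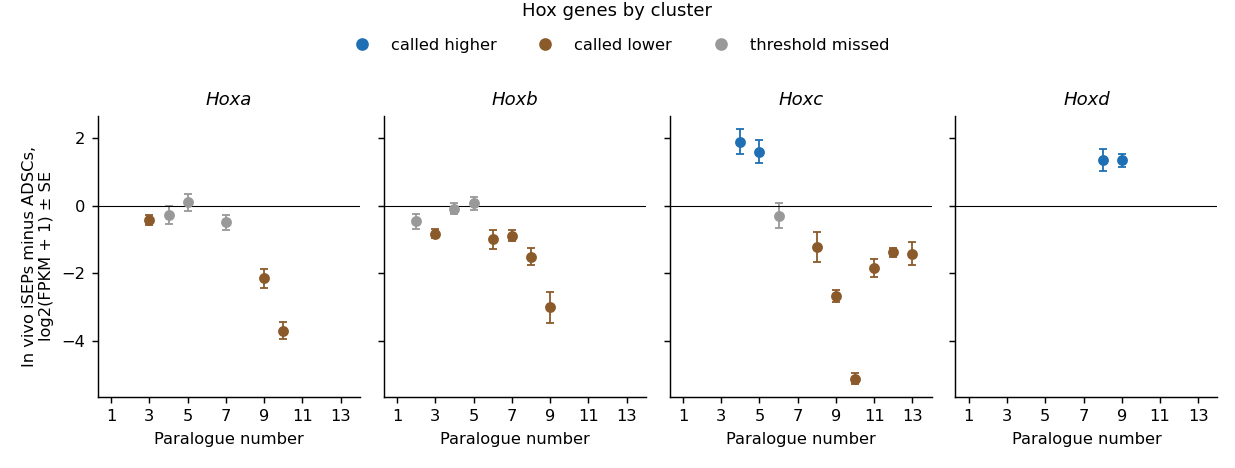
Log2 difference of in vivo iSEPs minus ADSCs (vertical, ± SE) of 25 tested Hox genes against their paralogue number in each of the 4 clusters, in blue where called higher, brown where called lower and grey where the threshold was missed. Hoxc10 lies lowest at -5.11, and in Hoxa, Hoxb and Hoxc the genes of paralogue groups 9 and 10 lie below those of groups 2 to 6, while Hoxd8 and Hoxd9 lie above 0.

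Position factors outside the Hox clusters fell in 8 of 17 cases and rose in 3. Shox2, a limb and trunk factor, fell from 57.3, 41.2 and 30.9 to 1.71, 1.45 and 1.29 FPKM (log2 -4.11, adjusted p = 8.51e-08). Irx5 rose from 4.14, 2.9 and 3.36 to 19.4, 20.9 and 9.35 (log2 1.91, adjusted p = 0.000558). Tbx15 was at 35.4, 28.3 and 28.3 against 30.9, 25.6 and 12.6 (adjusted p = 0.223). Pitx1, a hindlimb factor, differed mainly among the in vivo iSEPs, with 55.5, 14.2 and 2.03 against 4.7, 2.41 and 1.77 (adjusted p = 0.111).

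Of 18 tested imprinted genes 12 fell and 2 rose. Rian, a maternally expressed noncoding RNA gene of the Dlk1 to Meg3 region, went from 65.1, 36.1 and 29 FPKM to at most 0.028 (log2 -5.37, SE 0.23, adjusted p = 1.12e-08). Its neighbour Meg3 was at 43, 7.48 and 3.82 in ADSCs and was listed at 0 in all 3 in vivo libraries (adjusted p = 0.00041). Sgce fell by 4.49, Grb10 by 3.93 and Ndn by 3.24. H19 did not separate the groups, with 86.7, 4.83 and 2.04 against 2.38, 31 and 1.43 (adjusted p = 0.672).

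Of 27 cytokine and chemokine genes 12 fell and 6 rose. Cxcl12, a stromal chemokine, fell from 208, 76.2 and 39.6 to 0.609, 0.899 and 7.7 FPKM (log2 -4.86, adjusted p = 0.000178), Ccl7 from 163, 148 and 244 to 0.359, 5.37 and 31.2 (log2 -4.80, adjusted p = 0.00071) and Il6 from 12.9, 8.55 and 12.8 to at most 0.166 (log2 -3.50, adjusted p = 1.88e-08). Cxcl16 rose by 3.34 and Il18, a cytokine that keratinocytes store, by 2.74. The class I antigen presentation gene H2-D1 was at 35.4, 42.6 and 31.3 in ADSCs and 197, 227 and 307 in in vivo iSEPs (log2 2.69, adjusted p = 0.000332), and H2-K1 rose by 2.49 on the log2 scale. These are near-identical genes that may share reads. In the same list 6 of 23 rose and 5 fell, near the shares over all genes tested (27.6% higher, 20% lower). The count of falls ranged from 2 to 12 over the alternatives run. Ifit3, an interferon-induced gene, went from 2.67, 5.29 and 1.6 to at most 0.017 (log2 -1.95, adjusted p = 0.000106).

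Of 19 complement and coagulation genes 9 fell and 3 rose. Serping1, the C1 inhibitor gene, fell from 44.6, 26.4 and 21.7 to at most 0.052 FPKM (log2 -4.87, adjusted p = 2.03e-08), and F2rl1, a protease receptor of keratinocytes, rose from 1.87, 1.42 and 2.89 to 61.4, 93.6 and 32.5 (log2 4.28, adjusted p = 2.49e-06).

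Markers of other cell types were low for immune, endothelial, melanocyte and erythroid cells. The 13 immune markers summed to 8.7, 73.7 and 13.4 FPKM in ADSCs and 10, 22.6 and 15.1 in in vivo iSEPs, where 7 of them were at 0 in all 3 libraries and Cd68 made up most of the sum (9.78, 22.3 and 13.8). Lyz2, a macrophage gene, fell from 4.54, 50.5 and 7.93 to at most 0.209 (log2 -3.60, adjusted p = 0.000511). Its peak was in the ADSCs of mouse 2, which also had the highest values of Fcer1g (6.96), Tyrobp (5.97), Adgre1 (1.7) and Ptprc (0.457). The part of these cells in the differences was not tested. Endothelial markers summed to at most 13.7 FPKM, melanocyte markers to at most 3.78 and erythroid markers to at most 0.157 in any of the 6 libraries. Markers of pericytes and muscle summed to 46.8, 63.9 and 93.7 in ADSCs and 12.1, 16.3 and 92.1 in in vivo iSEPs, with mouse 3 far above the other 2, and neural and glial markers to 101, 118 and 127 against 139, 51.8 and 65.8. Hair follicle and sebaceous markers summed to 18, 10.9 and 12.5 against 27, 37 and 44.3.

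Lipid genes split evenly, 6 of 18 up and 6 down, against 27.6% higher and 20% lower over all genes tested. Pparg, the master regulator of fat cells, went from 6.69, 5.18 and 5.99 to at most 0.035 FPKM (log2 -2.78, SE 0.12, adjusted p = 1.1e-08), while Cebpa, which serves both fat cells and epidermis, rose from 5.48, 4.2 and 2.81 to 33, 23.7 and 20 (log2 2.37, adjusted p = 2.63e-05). Apoe rose from 3.04, 2.75 and 1.9 to 98.8, 309 and 23.3 (log2 4.69, adjusted p = 0.00155). Among glycolysis and hypoxia genes 6 of 25 rose and 3 fell, led by Car12 (log2 3.89) and the glucose transporter gene Slc2a1, which went from 65.2, 70.9 and 58.5 to 414, 508 and 207 (log2 2.43, adjusted p = 0.000141). Of 28 genes of oxidative stress and retinoid metabolism 7 rose and 7 fell. The counts of this list and of the glycolysis list were near or below the shares over all genes tested, 27.6% higher and 20% lower. Aldh1a2, which makes retinoic acid, fell from 15.6, 29.2 and 31.3 to at most 0.029 (log2 -4.65, adjusted p = 1.71e-08), and the retinol dehydrogenase gene Rdh12 rose from 1.3, 0.816 and 0.643 to 65.4, 74.6 and 22.1 (log2 4.68, adjusted p = 2.87e-06). Of 29 guidance genes 9 rose and 10 fell, with a median of 0.16 against 0.14 over all genes tested. The rises were near the share over all genes tested (27.6%), and the falls were above theirs (20%). Single members changed far more, with Slit3 down by 5.75 and the ephrin gene Efna1 up by 4.14.

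Cell cycle genes rarely passed the test but differed widely among the in vivo iSEPs. Of 34 tested, 2 rose and 2 fell, and the median was -0.25. Top2a, a mitotic topoisomerase, was at 26.8, 28.5 and 37.9 FPKM in ADSCs and 92.2, 27.3 and 4.12 in in vivo iSEPs (adjusted p = 0.69). In mouse 1 29 of the 34 genes lay above all 3 ADSC libraries, and in mouse 3 31 lay below all 3. Mki67, a marker of cycling cells, was at 10.2, 8.05 and 14.1 against 32.5, 10.5 and 1.57 (adjusted p = 0.833). The group means were thus close while single cultures lay on either side. Cdk6 rose in all 3 cultures, from 1.47, 1.15 and 1.35 to 6.3, 6.6 and 8.35 (log2 1.79, adjusted p = 2.87e-06). Of 24 CDK inhibitors, p53 targets and senescence genes 5 rose and 4 fell, below the shares over all genes tested (27.6% higher, 20% lower). Pmaip1, a death gene that p53 induces, rose from 13.7, 27.1 and 18 to 84.8, 138 and 151 (log2 2.62, adjusted p = 9.39e-06). Of 13 DNA and histone modifying enzymes 5 rose, among them the DNA methyltransferase gene Dnmt3a, from 2.85, 2.53 and 2.62 to 6.45, 7.24 and 6.37 (log2 1.07, adjusted p = 0.000107), and 8 missed the threshold.

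The in vivo iSEPs of mouse 3 were also lowest in 24 of 26 ribosomal protein genes tested. Of these 1 was called, Rps27l (log2 -0.55, adjusted p = 0.0314, 0.0545 with the mouse as a block and 0.215 without mouse 3, and lost in 8 alternatives in all), whereas 18 were called higher without the in vivo iSEPs of mouse 3. Rpl4, for example, had 831, 985 and 835 FPKM in ADSCs and 1593, 1654 and 892 in in vivo iSEPs (adjusted p = 0.07). Of 20 cholesterol synthesis genes 4 rose and 2 fell, below the shares over all genes tested (27.6% higher, 20% lower), and 12 rose without that library. Msmo1 rose from 74, 111 and 74.6 to 305, 231 and 168 (log2 1.41, adjusted p = 0.000206). Of 21 immediate early genes 7 rose and 8 fell, against 27.6% higher and 20% lower over all genes tested. The rises numbered 4 under median scaling or quantile normalization, or without the in vivo iSEPs of mouse 2 or 3 or the ADSCs of mouse 1 or 2, and 2 without mouse 2. Nr4a1, an early response gene, fell from 38.5, 42.1 and 48.7 to 1.26, 2.89 and 2.38 (log2 -3.83, adjusted p = 3.99e-06).

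**Figure D5:**
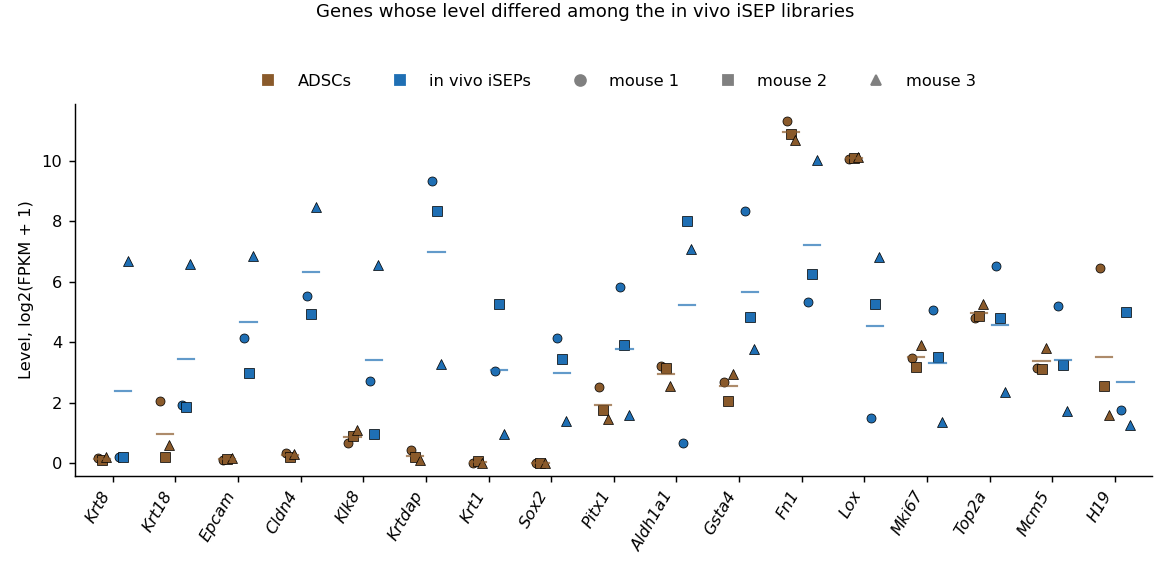
Level as log2(FPKM + 1) of 17 genes in each library of ADSCs (brown) and in vivo iSEPs (blue), with circles, squares and triangles for mice 1, 2 and 3 and a bar at the mean of each group (n = 3), chosen for differences among the in vivo iSEPs. The triangle of mouse 3 is far above the other 2 in vivo cultures in Krt8 (103 FPKM), Krt18 and Epcam and far below them in Krtdap (8.82 FPKM), and in Mki67, Top2a and Mcm5 mouse 1 is highest and mouse 3 lowest.

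Some genes were switched rather than shifted. In 143 genes (0.583% of the table) every ADSC library was below 1 FPKM and every in vivo iSEP library at 10 or more, and 97 genes (0.395%) showed the reverse. Of the former 134 also reached 10 FPKM in every in vitro iSEP library and 133 in every keratinocyte library, and of the latter 70 and 85 were below 1 FPKM in every library of those groups. Highest among the genes switched on were Col17a1, Lgals7 (galectin 7, at 587 FPKM on average) and Dsp. Switched on but not reaching 10 FPKM throughout either other epithelial group were Gpx2, Galnt6, Lmo1 and 1500009L16Rik. Among the genes switched off Sfrp1, Mfap5 and Pdgfrb were highest in ADSCs.

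Promoter sequence was read for these switched genes because factors that bind known short motifs also changed. The genes were picked by their levels in these same libraries, so their moving together is not a result. The motifs searched on both strands, overlapping matches included, were CACCTG (an E-box that Zeb and Snail repressors bind), AACNGGTT (grainyhead-like), GCCNNNGGC (AP-2) and TGANTCA (AP-1), in the 250 bases before the RefSeq start (build GRCm38.p6). A start within 1000 bases of the deposited one was found for 91 of the 143 and 65 of the 97. CACCTG was in 30.8% of the genes switched on and 7.69% of those switched off, against 17% of 17125 promoters of the same length in the table and 15.1% of the 9117 of genes tested. In that order AACNGGTT was in 5.49%, 1.54%, 1.62% and 1.45%, TGANTCA in 15.4%, 7.69%, 6.42% and 4.54%, and GCCNNNGGC in 16.5%, 15.4%, 16.2% and 20.9%. Among the switched genes the shares rest on few promoters. Those switched on and off with a match numbered 28 and 5 for CACCTG and 5 and 1 for AACNGGTT. For TGANTCA they numbered 14 and 5, and for GCCNNNGGC 15 and 10. These shares describe letters only and do not show binding.

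To show how the matches lie, 4 promoters of switched genes are printed 5′ to 3′ on the gene's strand, with matches to any of the 4 motifs in capitals. They were picked as examples and carry no count. Rab25, a trafficking gene of epithelia at 45.8, 28.9 and 32.7 FPKM in in vivo iSEPs and at most 0.102 in ADSCs (chr3:88548280-88548529, minus strand), holds the grainyhead-like motif and 2 copies of CACCTG. Spint2 (chr7:29281978-29282227, minus strand) holds 3 copies of CACCTG and an AP-2 match. Dsp, which rose more than either (chr13:38151044-38151293, plus strand), holds an AP-2 match and no CACCTG. Zeb2, switched off (chr2:45110278-45110527, minus strand), holds a pair of AP-1 matches.
Rab25: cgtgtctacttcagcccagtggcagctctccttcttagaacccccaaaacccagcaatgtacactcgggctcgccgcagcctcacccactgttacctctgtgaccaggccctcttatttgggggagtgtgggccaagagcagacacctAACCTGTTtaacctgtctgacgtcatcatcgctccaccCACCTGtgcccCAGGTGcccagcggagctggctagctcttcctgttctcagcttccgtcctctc
Spint2: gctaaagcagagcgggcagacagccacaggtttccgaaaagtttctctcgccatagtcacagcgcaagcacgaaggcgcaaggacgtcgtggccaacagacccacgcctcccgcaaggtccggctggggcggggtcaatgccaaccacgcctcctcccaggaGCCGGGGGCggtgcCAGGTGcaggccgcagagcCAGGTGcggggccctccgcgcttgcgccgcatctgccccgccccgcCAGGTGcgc
Dsp: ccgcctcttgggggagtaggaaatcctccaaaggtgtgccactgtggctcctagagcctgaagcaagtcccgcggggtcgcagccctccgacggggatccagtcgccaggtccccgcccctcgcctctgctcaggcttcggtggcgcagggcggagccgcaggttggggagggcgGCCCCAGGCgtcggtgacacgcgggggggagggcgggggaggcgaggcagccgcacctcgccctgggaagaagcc
Zeb2: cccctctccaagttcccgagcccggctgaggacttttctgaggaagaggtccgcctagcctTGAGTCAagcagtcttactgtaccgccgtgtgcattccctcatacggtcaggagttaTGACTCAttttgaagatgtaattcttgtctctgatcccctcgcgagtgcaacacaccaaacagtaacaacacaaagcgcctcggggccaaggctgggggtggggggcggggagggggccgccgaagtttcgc

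Against the other epithelial cultures fewer genes were called, 201 (1.63% of those tested, 0.679% higher and 0.946% lower in in vivo iSEPs) against in vitro iSEPs and 925 (7.48%, 3.41% higher and 4.08% lower) against keratinocytes. With the mouse as a block the first count was 128. Both counts moved widely with the libraries used. Without mouse 2 in all 4 groups they were 2 and 35. They were 359 and 1676 without the in vivo iSEPs of mouse 1, and 360 and 1609 without those of mouse 3. Trp63 was higher in in vivo iSEPs than in keratinocytes (98.6 ± 50.6 against 34.9 ± 1.9 FPKM, SD, n = 3, log2 1.35, adjusted p = 0.0216), and Igfbp2 too (2408 ± 1469 against 126 ± 21.5, log2 4.08, adjusted p = 0.000497). These comparisons share the in vivo iSEP libraries with that against ADSCs.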

How the data were processed

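RNA was measured by sequencing in cultured mouse cells, 3 mice in each of 4 groups. The authors deposited FPKM per gene; per the file headers they came from HOMER, counted over exons and condensed to genes on mm10 with the strand option set to plus. FastQC 0.11.5 and STAR 2.5.1b are named in the submitters' processing notes. A further 3 FPKM columns match no sample and were not used. Low FPKM values were whole multiples of 1 read (100% within 0.15 reads), which gave the depth. Near-identical genes and overlapping genes may share reads.

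In R 4.3.3, limma 3.58.1 was fitted to log2(FPKM + 1) of genes reaching 1 FPKM in 3 or more of 12 libraries (mean-variance trend, 4 group means, two-sided), with p-values adjusted by Benjamini-Hochberg over all 12364 genes and called below 0.05. The fit was tested on simulated data. Groups come from the labels. All 12 libraries share the estimate of spread of each gene. The median SD within a group, on the log2 scale, was 0.253 in in vivo iSEPs, 0.162 in ADSCs, 0.197 in in vitro iSEPs and 0.117 in keratinocytes. The labels give the same mouse for the same number in each group; deviations from the group means of ADSCs and in vivo iSEPs of the same mouse correlated at -0.0152, 0.0634 and 0.00896, and the mouse as a block was an alternative. Other alternatives were a filter of 5 FPKM or none, a pseudocount of 0.1, median scaling, quantile normalization and the 6 libraries alone. Each mouse was also left out in all 4 groups, and each single library of ADSCs or in vivo iSEPs.

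Members and gene lists were chosen with earlier results of these data known. Named genes were the 10 with the largest change in each direction (groups not overlapping, higher mean of at least 5 FPKM), from each list up to 6 called and 2 not called, the 6 that set each in vivo library most apart, the 8 most abundant of each group, and Pdgfra, Vim, Col1a1, Col1a2, Cdh1, Cdh2, Epcam, Krt5, Krt14, Trp63, Grhl2, Tfap2a, Myc, Krt8, Krt18 and Krt10 throughout. Genes outside that rule, chosen after their values were seen, are 1500009L16Rik, Adgre1, Cdh3, Col18a1, Col4a1, Ddr1, Ddr2, Fcer1g, Fgfr2, Galnt6, Gpx2, Grhl3, Hes1, Hoxa3, Hoxb3, Hoxb6, Hoxc5, Hoxc8, Hoxd8, Hoxd9, Id1, Id2, Id3, Id4, Il18, Itgb1, Lamc1, Lgals7, Lmo1, Mcm5, Met, Mki67, Mmp10, Nid1, Pdgfb, Ptprc, Rab25, Runx1, S100a1, Snai2, Sox21, St14, Tfap2c, Tgfb1, Top2a, Tyrobp and Zeb1. Some genes that enter the list counts are not reported here by name. Flg of the cornified envelope list was not matched.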

Additional observations from a re-analysis of the deposited data

Results flagged for a closer look

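Among the 361 named genes, 25 are given here in which the change from ADSCs differed between in vivo and in vitro iSEPs in limma's test of that difference, in which the shared ADSC mean cancels. Over all 12364 genes tested 201 (1.63%) were called in it. Values are log2 differences of in vivo minus in vitro iSEPs, and main adjusted p-values ran from 5.25e-06 to 0.0471.

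The stromal genes among them that were lower in in vivo iSEPs were Postn by -3.21, Col1a2 by -3.13, Col6a1 by -3.01, Col3a1 by -2.88, Col6a2 by -2.78, Fabp4 by -2.26, Col1a1 by -2.10, Thy1 by -1.80, Tgfbr3 by -1.41 and Thbs2 by -1.15. Dlk1 was lower too (-2.55), at 0.058, 0.488 and 4.31 FPKM against 5.1, 18.2 and 13.3 in in vitro iSEPs. In ADSCs Dlk1 was low as well, at 1.19, 0.456 and 0.578. In the whole lists 3 of 34 matrix glycoproteins were called lower, and of 21 stromal collagens 6 were called lower and 1 higher. Of 22 stromal surface genes 3 were called higher and 1 lower, and of 24 contractile genes 5 were called higher. Over all genes tested 0.679% were called higher and 0.946% lower. Hox genes moved both ways, with Hoxc10 at -3.40, Hoxa9 at -2.76, Hoxa10 at -2.17, Hoxc9 at -1.87 and Hoxb2 at 1.88. Epithelial and growth genes that were lower were Cldn1 (-2.09), Ccnd1 (-1.49), Fos (-1.46) and Serpinb2 (-1.29). Higher in in vivo iSEPs were the contractile genes Tagln (3.40) and Cnn1 (2.74), and Sox2 (2.98), Nt5e (1.57) and Tek (0.67). Sox2 passed the filter on low values only through the in vivo iSEP libraries, so it had to come out higher. Tek was below 1 FPKM in every library of both kinds of iSEP (0.785, 0.742 and 0.591 against 0.058, 0.15 and 0). It was tested only through other groups, so the calls of these 2 genes add little to their levels. Hoxc10 kept its call in each of the 16 alternatives run (highest adjusted p = 0.0192). The other 24 lost it in at least 1, with highest adjusted p-values from 0.126 to 0.433. They kept it in 2 (Thy1) to 14 (Col3a1, Hoxc9 and Hoxb2) of the 16 alternatives. Col1a1 and Dlk1 kept it in 3, Nt5e in 5, and Postn, Col1a2, Cldn1, Thbs2, Tagln and Ccnd1 in 6. With the 6 libraries of this comparison alone, 1 gene of all those tested was called.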

How the results depend on the processing

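Against ADSCs 5888 genes were called, and no called named gene changed direction in the 16 alternatives run. Under median scaling 5203 of the 5888 kept the call with the same sign, although called genes were then more often lower than higher. Counts were 4644 with a filter of 5 FPKM, 6945 with none, 6034 with a pseudocount of 0.1, 5670 under median scaling, 5762 under quantile normalization and 4916 with the 6 libraries alone. The share of called genes that were higher, 57.9%, was 48.1% under median scaling (2727 higher, 2943 lower), 50.4% under quantile normalization and 50.8% with no filter. With the replicate block (the mouse) the count was 5789, and of the called named genes Ncam1 and Rps27l lost the call. Leaving out a mouse or library gave 3486 to 6281 calls (1914 to 3752 higher, 1572 to 2542 lower), the lowest without mouse 2.

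Against in vitro iSEPs the 201 calls became 128 with the replicate block, 1 with the 6 libraries alone and 2 to 360 with libraries left out. Against keratinocytes the 925 calls became 424 with the 6 libraries alone and 35 to 1676 with libraries left out. The cause was not tested, and the 6-library and left-out fits have fewer samples.

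Of 265 called named genes 227 kept the call throughout and 38 lost it at least once, 33 of them without mouse 2. Of 96 not called, 50 were called in at least 1 alternative. Of 45 list counts of 5 or more, 15 moved by over 1.5 times. With a filter of 5 FPKM the falls went from 23 to 15 for EMT factors, 14 to 7 for Hox genes and 12 to 7 for imprinted genes. Depth is given only through FPKM, and 3 mice a group limit the precision.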
